A study of Rattus norvegicus with 16 samples.

Results

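The 5 genes described here encode the transcription factors Wt1, Tcf21, Lmx1b, Foxc1 and Foxc2, which are used as markers of the podocyte, the epithelial cell that covers the glomerular capillary with its foot processes. They were chosen by name, and all 5 were found among the 13222 genes of the expression table. The data were RNA-seq profiles of glomeruli sieved from the kidneys of male Wistar rats of about 175 g, harvested on day 11, with 16 libraries in all. There were 4 libraries in each of 4 groups, and the labels name no batch, litter or pairing. Controls were labelled healthy, and whether they received vehicle was not given in the sources used here. PAN rats received intravenous puromycin aminonucleoside, a podocyte toxin used to model nephrotic syndrome, and a sham vehicle by gavage. The other two groups received the same toxin and, by daily gavage, either pioglitazone, a thiazolidinedione agonist of PPAR gamma, or GQ-16, a partial agonist of the same receptor. Doses were not given in the sources used here, and all injected groups shared the toxin and the harvest day. Each library is called a rat below, numbered in accession order within its group, although the labels describe libraries rather than animals. P-values therefore measure the spread between these samples.

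Wt1 is a zinc finger protein needed for nephron formation and for the differentiated podocyte, and its mutations cause glomerular disease. Tcf21 is a basic helix-loop-helix protein of kidney mesenchyme and podocytes that binds DNA together with E proteins. Lmx1b is a LIM homeodomain protein whose loss causes nail-patella syndrome, and Foxc1 and Foxc2 are forkhead paralogs with partly shared roles in kidney development. These factors are known to bind near several of the same podocyte genes, including those of the slit diaphragm and the actin cytoskeleton.

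The 5 genes were high in the same rats and low in the same rats. Promoter sequence was also examined for the members found in the RefSeq promoter table, which is on assembly GRCr8 and held 4 of the 5. The 120 bases upstream of the annotated start are printed for Tcf21 and Foxc1, the members with the largest and the smallest difference between PAN and control. Capitals mark CG dinucleotides. The Tcf21 window lies at chr1:24520379-24520498 on the plus strand and the Foxc1 window at chr17:32844101-32844220 on the minus strand.
Tcf21: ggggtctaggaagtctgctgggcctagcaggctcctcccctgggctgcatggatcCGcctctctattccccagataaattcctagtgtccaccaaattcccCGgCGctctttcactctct
Foxc1: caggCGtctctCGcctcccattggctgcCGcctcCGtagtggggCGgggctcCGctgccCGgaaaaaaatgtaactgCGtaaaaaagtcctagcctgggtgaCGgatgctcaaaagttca
These stretches hold 3 CG dinucleotides for Tcf21 and 9 for Foxc1. Over the 250 bases upstream of the start, Tcf21 had a GC content of 53.6% and 7 CG dinucleotides, more than 54.8% of the 33469 promoters in the table. Foxc1 had 29 CG dinucleotides, more than 94.0% of promoters, and the median promoter had 51.2% GC and 5 CG dinucleotides. Wt1 (71.6% GC, 27 CG) and Lmx1b (84.4% GC, 44 CG) were also above the median. The CG count of this window ranged from 7 to 44 among the 4 members, and a link to their levels was not tested. Motifs of the kinds these factors bind were searched on both strands of the 250 bases. The zinc finger motif GCGTGGG was found in 3.68% of all promoters, the forkhead motif GTAAACA in 3.21% and the homeodomain motif TAATTA in 4.86%. The helix-loop-helix motif CAGCTG was found in 12.0% of promoters. None of these was in the windows of the 4 members. The wider motif CANNTG, of which CAGCTG is a special case, was found in 65.5% of promoters and in those of Wt1 and Lmx1b.

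Some facts of the whole series bear on these genes. Library totals ran from 13351137 to 21977663 reads. The lowest count of any member in any rat was 147 reads of Tcf21, in control rat 3 (9.30 CPM from the reads alone, with an exact Poisson 95% interval of 7.86 to 10.9 for counting error only), so counting error was small beside the differences described below. The deposited CPM, the read count scaled to a common library total, was 9.33 there because 0.5 is added to each count, and all levels below are on that scale. The preparations were not pure glomeruli. The summed level of 8 proximal tubule genes ran from 2854 to 11509 CPM over the 16 rats and that of 12 podocyte structural genes from 2963 to 16181 CPM. Control rats 2 and 3 had the lowest podocyte sums of the series, at 2969 and 2963 CPM. Mitochondrial transcripts made up 39.6% and 32.6% of their reads, against 13.9% in control rat 1.

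Wt1 (ENSRNOG00000013074) was measured at 227, 39.9, 42.2 and 82.6 CPM in control rats 1 to 4 and at 217, 252, 241 and 171 CPM in PAN rats 1 to 4. Control rat 1 lay inside the PAN range and the other 3 control rats lay below it. Group means were 97.8 ± 88.1 CPM for control and 220 ± 35.7 CPM for PAN (SD, n = 4). The log2 change of Wt1 was 1.52 (SE 0.497), and its limma adjusted p was 0.0400.

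Tcf21 (ENSRNOG00000016700) was at 98.2, 10.5, 9.33 and 30.998 CPM in the control rats and at 147, 121, 104 and 83.3 CPM in the PAN rats. The order of the control rats was nearly that of Wt1, with rat 1 again among the PAN rats. Group means of Tcf21 were 37.3 ± 41.8 and 114 ± 27.1 CPM (SD, n = 4). Its log2 change of 2.18 (SE 0.648, limma adjusted p 0.0287) had the largest estimate of the 5 members, and 0.582% of all genes had a larger one.

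Lmx1b (ENSRNOG00000017019) had 79.4, 12.5, 11.0 and 27.6 CPM in control and 79.1, 73.3, 68.5 and 59.96 CPM in PAN. Control rat 1 was slightly above all 4 PAN rats. The log2 change of Lmx1b was 1.52 (SE 0.562) and did not pass, with a limma adjusted p of 0.0600.

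The forkhead pair behaved alike in most rats. Foxc1 (ENSRNOG00000017800) was at 57.2, 15.5, 18.0 and 28.3 CPM in control and at 61.2, 60.2, 60.4 and 46.1 CPM in the PAN rats. The Foxc1 change was 1.09 in log2 (SE 0.367, limma adjusted p 0.0440). Foxc2 (ENSRNOG00000047446) was at 87.4, 11.7, 11.9 and 25.3 CPM in control and at 75.5, 85.9, 73.6 and 54.4 CPM in the PAN rats, and control rat 1 was above every PAN rat. The Foxc2 change of 1.54 (SE 0.538) lay at the threshold, with a limma adjusted p of 0.0501. Foxc1 and Foxc2 are single-exon paralogs, and how reads matching both were counted was not given in the sources used here.

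**Figure D1:**
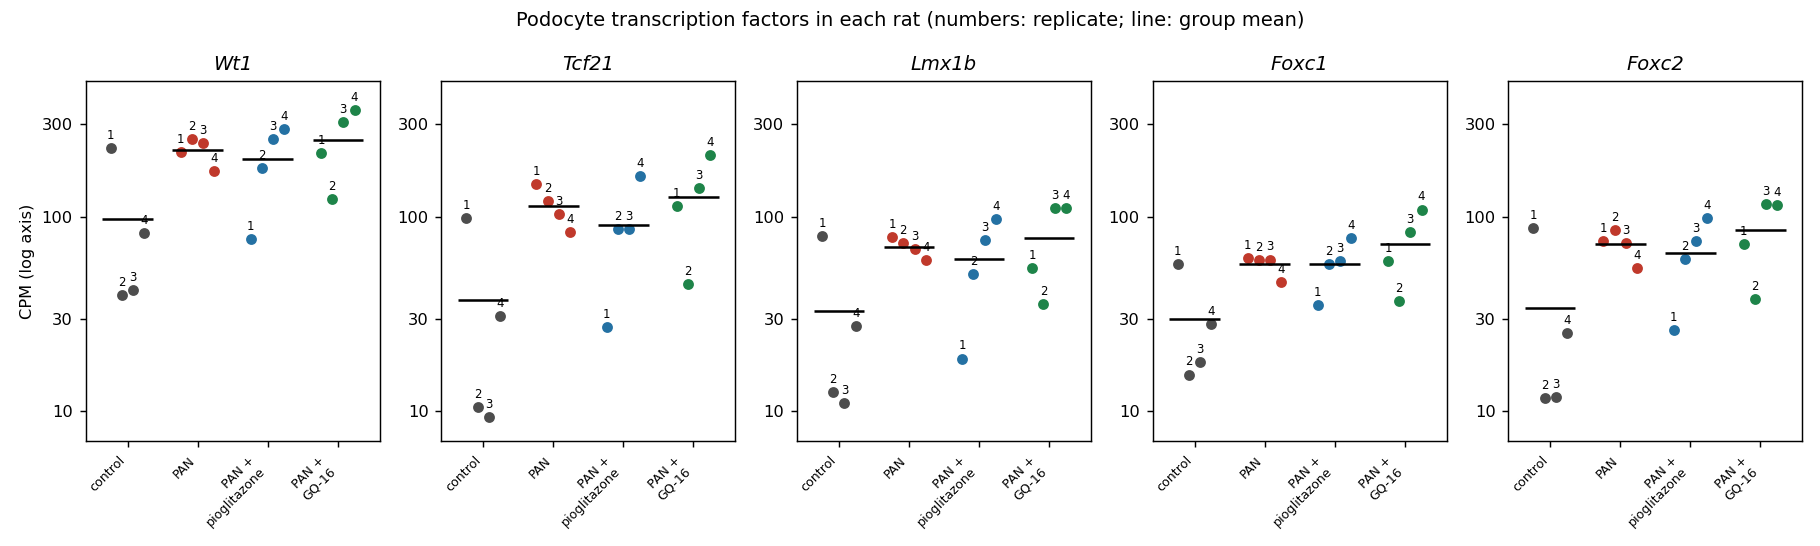
Level of each transcription factor in CPM (log axis) in the 16 rats, grouped by treatment, with the replicate number above each point and a line at the group mean. Control rat 1 sits within the PAN range for Wt1, Tcf21 and Foxc1 and just above it for Lmx1b and Foxc2, while control rats 2 and 3 are the lowest of the 16 in each panel.

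As deposited, Wt1, Tcf21 and Foxc1 rose in PAN, and 3 of 5 members therefore passed the test against 22.3% of all genes in the same comparison. All 5 had a positive change with an unadjusted limma p under 0.05, a level that 5562 of the 13222 genes reached in either direction. The median change of the members was 1.52, and that of all 13222 genes was 0.28, so on the deposited scale the typical gene was also higher in PAN. Under median-ratio scaling, which sets the median change of all genes close to 0, the members' changes were 1.23 for Wt1, 1.89 for Tcf21, 1.23 for Lmx1b, 0.80 for Foxc1 and 1.25 for Foxc2. On that scale limma adjusted p-values lay between 0.0618 and 0.142, so 0 of 5 passed, against 8.63% of all genes. The calls themselves were also less one-sided there: 943 of 1141 called genes were higher in PAN, against 2874 of 2943 as deposited. The groups overlapped for every member as deposited, so 0 of 5 were higher in PAN without overlap, against 22.4% of all genes.

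Control rat 1 decided much of the spread. Without it, the changes were 2.05 for Wt1, 2.85 for Tcf21, 2.09 for Lmx1b, 1.46 for Foxc1 and 2.15 for Foxc2, and 5 of 5 passed (limma adjusted p from 0.00290 to 0.00730), as did 37.5% of all genes. Without control rat 2 or 3, 0 of 5 passed, against 6.5% and 6.34% of all genes. Without PAN rat 1, 2 or 3, 0 of 5 passed, against 7.93%, 9.96% and 14.8% of all genes. Without control rat 4 Foxc1 alone lost its call (limma adjusted p 0.0512), so 2 of 5 passed against 28.9%, and without PAN rat 4 it was 3 of 5 against 24.4%. Other settings added the call of Foxc2, which lay at the threshold, and so gave 4 of 5. These were a pseudocount of 0.1 (limma adjusted p 0.0490, 22.4% of all genes called), a minimum mean of 10 CPM (0.0494, 23.8% of 9909 genes) and voom weights (0.0459, 22.8% of all genes). Numbers in the library titles also differed between the groups: 3 of the 4 PAN libraries were numbered 25 or higher and all 4 control libraries were numbered 10 or lower, and the labels do not say what these numbers record. With a term for numbers of 25 or higher, the change of Tcf21 was 1.38 (limma adjusted p 0.350), and 0 of 5 passed, against 2.97% of all genes. The only PAN library numbered below 25 was that of PAN rat 4, whose members were the lowest of the PAN rats.

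Several other cell types moved with the same groups. Of 8 mesangial and stromal markers 7 rose in PAN, and their sum was 310 to 843 CPM in control and 1702 to 4410 CPM in PAN. Of 8 distal nephron markers 5 fell, with sums of 969 to 1706 CPM in control and 509 to 1091 CPM in PAN. Leukocyte markers rose in 4 of 7, with sums of 222 to 319 CPM in control and 271 to 770 CPM in PAN, and 0 of the 7 passed under median-ratio scaling. Proximal tubule markers passed in 0 of 8 and endothelial markers in 0 of 7, and none of these markers was at 0 in either group. Mitochondrial reads were 13.9% to 39.6% of control libraries and 5.98% to 10.8% of PAN libraries. With the 21 mitochondrial genes left out of the totals, the change of Wt1 was 1.21 (limma adjusted p 0.0954) and 0 of 5 members passed, against 8.25% of all genes. The part of the other cell types in the result was not tested.

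**Figure D2:**
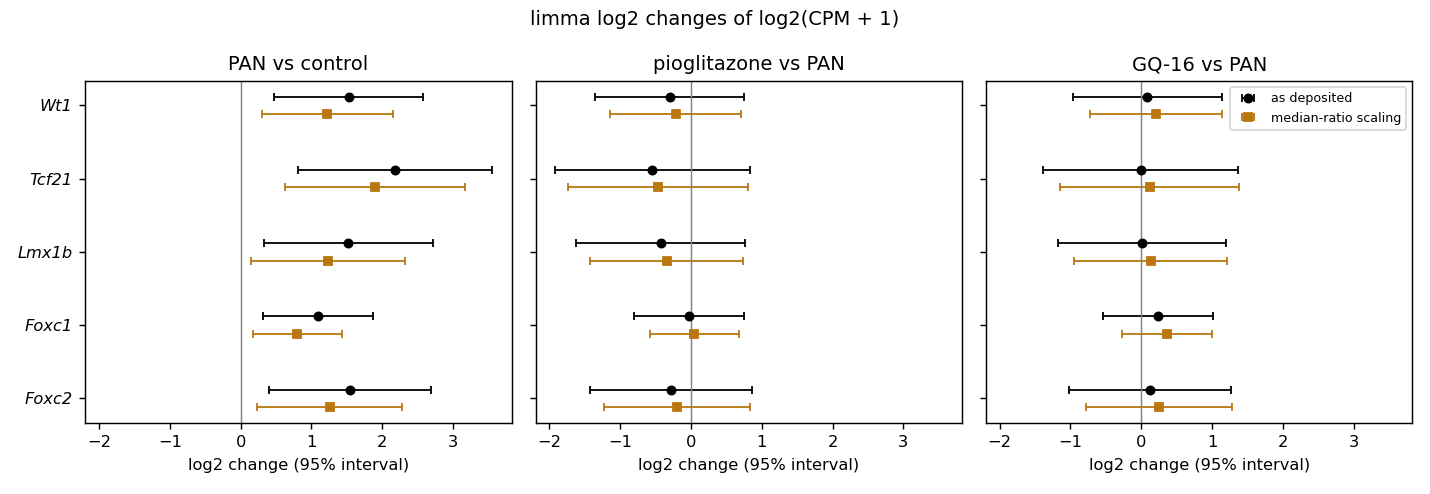
Log2 change of log2(CPM + 1) with its 95% interval for each factor in PAN against control and in each drug group against PAN, as deposited (circles) and under median-ratio scaling (squares). All PAN intervals lie above 0 before adjustment over all genes, and all drug intervals include 0.

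The spread of the 5 factors among rats of the same group differed between groups. The highest level was 3.70 to 10.5 times the lowest among the control rats and 1.32 to 1.77 times among the PAN rats, with the smaller value for Foxc1 in control and for Lmx1b in PAN, and the larger for Tcf21 in both. Among pioglitazone rats it was 2.21 (Foxc1) to 5.96 (Tcf21) times the lowest, and among GQ-16 rats 2.88 (Wt1) to 4.62 (Tcf21) times. Single rats set much of this spread. The ratios were 1.83 to 3.32 among controls without control rat 1, 1.35 to 1.92 among pioglitazone rats without rat 1 and 1.61 to 2.03 among GQ-16 rats without rat 2. Among PAN rats they were 1.02 to 1.42 without PAN rat 4. Over all 16 rats the highest level was 8.90 times the lowest for Wt1, 22.3 times for Tcf21, 10.2 times for Lmx1b, 7.06 times for Foxc1 and 9.93 times for Foxc2. The SD of log2(CPM + 1) was 0.75 for Foxc1, between 0.98 and 1.04 for Wt1, Lmx1b and Foxc2, and 1.32 for Tcf21, whereas the median gene had an SD of 0.27. At least 95.6% of genes had a smaller SD than each member. The highest level of every member was in GQ-16 rat 3 or 4 and the lowest in control rat 2 or 3.

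The members followed one another closely. Pearson correlations between the 10 pairs of members over the 16 rats ran from 0.956 (Lmx1b with Foxc1) to 0.995 (Wt1 with Foxc2). The rats share their groups and the common preparation, so these values are descriptions. The gene most like Wt1 among 11887 genes with a symbol was Foxc2, followed by Osbpl5, Lmx1b, Slc48a1 and Lysmd2 (r from 0.986 to 0.995). Tcf21 was most like Slc48a1, Lysmd2, Anxa1, Calm2 and Nbl1 (0.988 to 0.996). Lmx1b was most like Epn3, Kcng2, Synpo, which encodes the podocyte actin-binding protein synaptopodin, Wt1 and Ccn4 (0.987 to 0.990). Genes most like Foxc1 included Spart, Phlda1, Tmem109 and Tecr (0.983 to 0.986), of which Tecr dropped to 0.81 under median-ratio scaling. Those most like Foxc2 included Wt1, Calm2, Phlda1 and Lmx1b (0.986 to 0.995). Such likeness was common: between 803 and 1116 genes had a correlation over 0.9 with a given member.

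Structural genes of the podocyte showed a similar, though not identical, order of rats. The mean log2(CPM + 1) of 12 such genes correlated with Wt1 at 0.97, Tcf21 at 0.97, Lmx1b at 0.98, Foxc1 at 0.96 and Foxc2 at 0.97 over 16 rats. Within the 12 injected rats these correlations were 0.94 to 0.97. Per unit of the podocyte mean, Tcf21 moved by 1.56 units, Lmx1b by 1.26, Foxc2 by 1.24, Wt1 by 1.17 and Foxc1 by 0.88, all in log2(CPM + 1). In bulk glomerular RNA, fewer podocytes and less RNA per podocyte cannot be told apart.

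**Figure D3:**
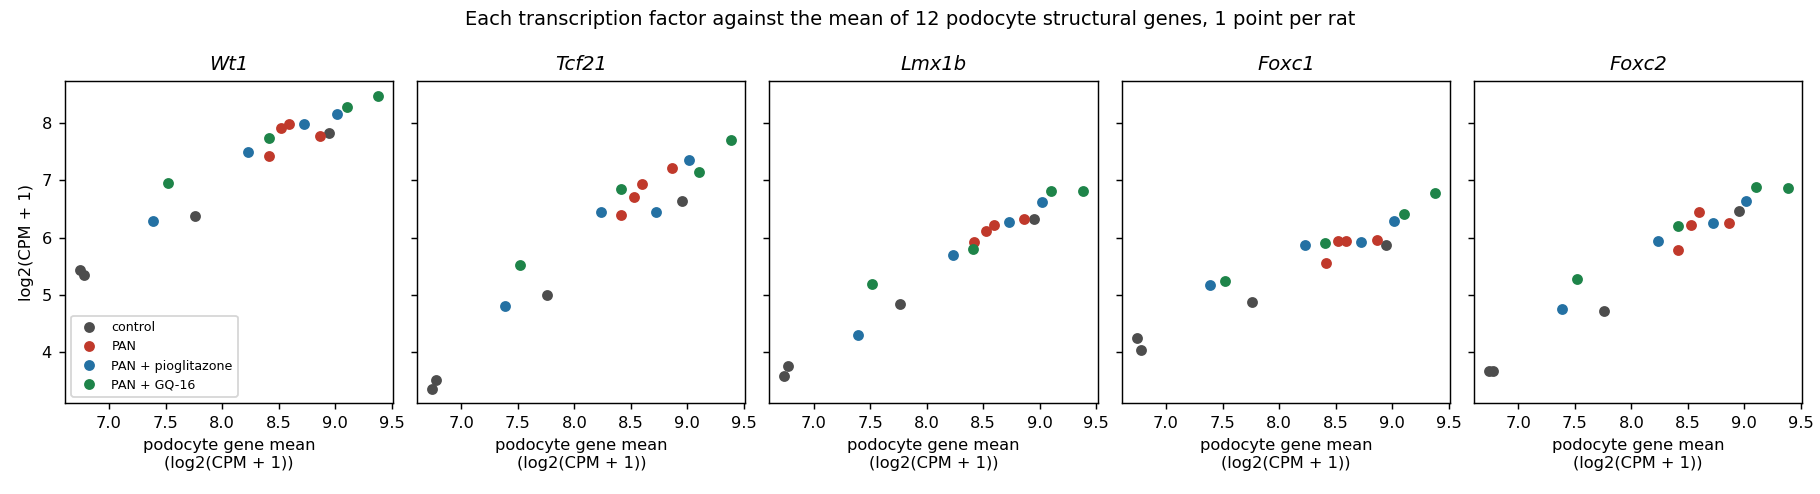
Log2(CPM + 1) of each factor against the mean log2(CPM + 1) of 12 podocyte structural genes, with 1 point per rat and colours for the groups. The points rise together in each panel (r from 0.96 to 0.98), and the rats below 8 on the x axis are 3 controls, 1 pioglitazone rat and 1 GQ-16 rat.

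Rats with like podocyte sums give a direct comparison of levels. Control rat 1, with a podocyte sum of 10317 CPM, had Tcf21 at 98.2 CPM, and PAN rat 2, with a sum of 10369 CPM, had it at 121 CPM. Pioglitazone rat 3, with a sum of 10172 CPM, had it at 86.7 CPM, below that control rat. Control rat 4 (sum 5276 CPM) and pioglitazone rat 1 (5180 CPM) had Tcf21 at 30.998 and 27.1 CPM, and GQ-16 rat 2 (4718 CPM) had 44.9 CPM. The injected rats were thus on both sides of the control rat with the most like sum. These rats were picked for their sums and have no test.

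To set the factors against podocyte content, the mean of the 12 structural genes was subtracted from each factor's log2(CPM + 1) within each rat. The resulting quantity does not change with library scaling except through the added 1. Since the slopes on the podocyte mean differed from 1, from 0.88 for Foxc1 to 1.56 for Tcf21, it may still carry podocyte content. Tcf21 relative to podocyte genes was -2.32, -3.25, -3.37 and -2.76 in the control rats and -1.65, -1.67, -1.82 and -2.02 in the PAN rats. Each PAN rat was above each control rat, and the group means differed by 1.14, a ratio of 2.20. The limma adjusted p was 0.199, and an exact permutation test over the 70 assignments of 8 rats gave an unadjusted p of 0.0286, the smallest this design allows.

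Wt1 relative to podocyte genes was -1.12, -1.42, -1.31 and -1.37 in control and -1.10, -0.61, -0.61 and -0.99 in PAN. The gap between the highest control rat and the lowest PAN rat was narrow, and the means differed by 0.48 (a ratio of 1.396). Lmx1b relative to podocyte genes was -2.62, -3.02, -3.16 and -2.92 in control and -2.54, -2.38, -2.41 and -2.49 in PAN, also without overlap, with a difference of 0.48 (a ratio of 1.39). Foxc2 on this scale was -2.48, -3.10, -3.06 and -3.04 in control and -2.61, -2.15, -2.30 and -2.62 in PAN, a difference of 0.50 in which control rat 1 lay within the PAN range.

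Foxc1 on the same scale was at -3.09, -2.73, -2.49 and -2.89 in control and at -2.90, -2.66, -2.59 and -2.86 in PAN, so all PAN rats lay inside the control range. The difference was 0.05, with a 95% interval of -0.29 to 0.39 from a fit that uses the variance of each gene alone. Its exact permutation p was 0.743, and that of Foxc2 was 0.0857, each unadjusted and among 30 such tests (5 factors, 6 comparisons).

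None of these relative differences passed adjustment over all genes: limma adjusted p-values ran from 0.199 to 0.915, 0 of 5 passed, and 0.174% of all genes did. With the variance of each gene alone the adjusted p from limma was 0.0900 for Tcf21 and 0.242 to 0.783 for the others, so 0 of 5 passed again, against 0.545% of all genes. Without overlap, 3 of 5 factors (Wt1, Tcf21 and Lmx1b) were higher in PAN, against 1.29% of all genes. The reference itself averaged 8.60 in PAN and 7.56 in control, and the median change of all genes on this scale was -0.76. Shares without overlap relative to podocyte genes are therefore not a like baseline for genes that follow the reference. The choice of reference mattered: with the median of the same 12 genes in place of their mean, the differences were 0.71 for Tcf21, 0.056 for Wt1, 0.053 for Lmx1b, 0.075 for Foxc2 and -0.38 for Foxc1. With that reference 1 of 5 factors, Tcf21, was higher in PAN without overlap (exact permutation p 0.0286, unadjusted), against 0.424% of all genes, and 0 of 5 passed by limma (adjusted p from 0.242 to 0.933), against 0.265% of all genes. Without control rat 1, Tcf21 differed by 1.34 on this scale (limma adjusted p 0.0105), and it was then the 1 of 5 that passed, but 79.5% of all genes passed in that fit.

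**Figure D4:**
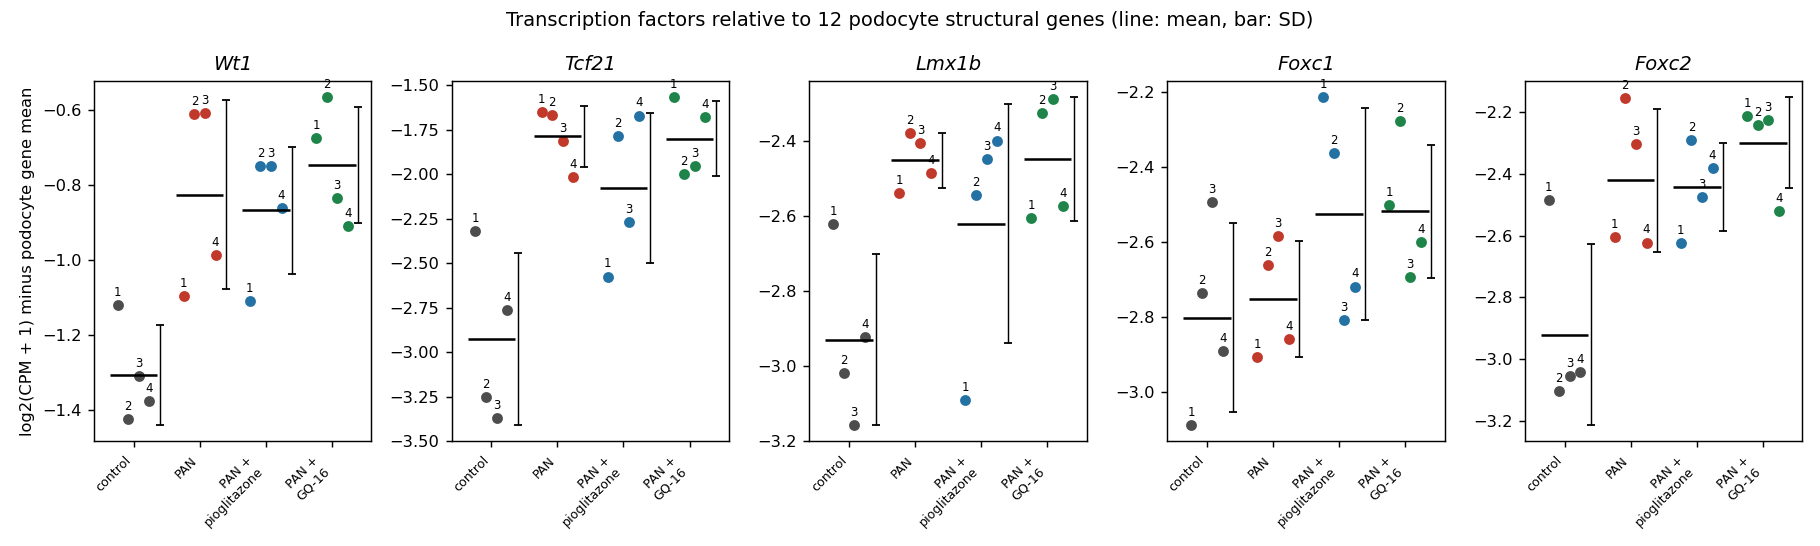
Log2(CPM + 1) of each factor minus the mean of 12 podocyte structural genes in the same rat, with the replicate number above each point, a line at the group mean and a bar of 1 SD to either side. Wt1, Tcf21 and Lmx1b do not overlap between control and PAN with this reference, whereas with the list's median only Tcf21 does not, and the Foxc1 values of all 4 PAN rats fall within those of the controls.

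The podocyte mean was also entered as a covariate, a fit added after the data were seen. In it Tcf21 rose by 0.78 in PAN (SE 0.178, limma adjusted p 0.0156), and it was the 1 of 5 members that passed, against 7.55% of all genes. On the same deposited scale, leaving out control rat 1 gave 0.90 for Tcf21 and ended its call (limma adjusted p 0.0752). Under median-ratio scaling with the covariate and all rats, the change of Tcf21 was 0.84 (limma adjusted p 0.0115). The changes of Wt1, Lmx1b, Foxc1 and Foxc2 on the deposited scale were 0.46, 0.30, 0.31 and 0.38 and did not pass, although Wt1 passed without PAN rat 1 (0.54, limma adjusted p 0.0388). Against control, Foxc1 rose by 0.47 in the pioglitazone group (limma adjusted p 0.0232, 1 of 5 members, 4.27% of all genes) and by 0.54 in the GQ-16 group (limma adjusted p 0.0458, 1 of 5 members, 0.325% of all genes). The first of these calls was lost without control rat 1 (limma adjusted p 0.114), pioglitazone rat 1 (0.121) or pioglitazone rat 2 (0.0896), and without pioglitazone rat 3 Tcf21 passed as well (0.67, limma adjusted p 0.0291). The second was lost without any 1 of the 8 rats except GQ-16 rat 4, with limma adjusted p up to 0.356 (without control rat 1). Both comparisons share the control rats with that of PAN.

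Ratios of one member to another do not depend on the reference or the library total. Tcf21 over Lmx1b was 0.84 to 1.24 in the control rats and 1.39 to 1.86 in the PAN rats, without overlap. Tcf21 over Foxc2 was 0.787 to 1.22 in control and 1.41 to 1.95 in PAN. Tcf21 over Foxc1 was 0.518 to 1.716 in control and 1.716 to 2.41 in PAN, where control rat 1 all but met PAN rat 3. Wt1 over Tcf21 overlapped, at 2.31 to 4.52 in control and 1.47 to 2.32 in PAN. The remaining 6 ratios also overlapped between the groups. Lmx1b over Foxc2 was 0.908 to 1.09 and 0.854 to 1.10, nearly the same range in both, and Foxc1 over Foxc2 was 0.654 to 1.52 in control and 0.701 to 0.847 in PAN. These are ratios of CPM within a rat, so only their change between rats is meaningful. The ratios without overlap were 3 of 10, all with Tcf21, beside 18.3% of all pairs of genes whose ratio did not overlap between control and PAN in either direction. The ratio of Tcf21 to each other gene was higher in PAN without overlap for 9.69% of genes. These ratios were not tested.

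The factors were also compared between each group given a PPAR gamma agonist and PAN. Library numbers differed between these groups as well. They were 25, 31, 32 and 6 in PAN rats 1 to 4. In pioglitazone rats 1 to 4 they were 1, 2, 3 and 34, and in GQ-16 rats 13, 14, 15 and 27. Wt1 was at 76.8, 178, 251 and 284 CPM in pioglitazone rats 1 to 4 and at 212, 123, 307 and 355 CPM in GQ-16 rats 1 to 4. Tcf21 was at 27.1, 86.2, 86.7 and 162 CPM with pioglitazone and at 114, 44.9, 141 and 208 CPM with GQ-16. Both groups ranged from below the lowest PAN rat to above the highest. Lmx1b was at 18.7, 50.6, 76.4 and 97.2 CPM with pioglitazone and at 54.9, 35.6, 111 and 111 CPM with GQ-16. Foxc1 was at 35.1, 57.5, 59.5 and 77.7 CPM with pioglitazone and at 59.1, 36.8, 84.0 and 109 CPM with GQ-16. Pioglitazone rat 1 and GQ-16 rat 2 were the lowest of their groups for every member, and they also had the lowest podocyte sums of their groups. Foxc2 was at 26.2, 60.5, 75.1 and 98.4 CPM with pioglitazone and at 72.5, 37.8, 117 and 115 CPM with GQ-16.

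Against PAN, the changes under pioglitazone were -0.30 for Wt1 (95% interval -1.35 to 0.75), -0.55 for Tcf21 (-1.92 to 0.83), -0.43 for Lmx1b (-1.62 to 0.76), -0.03 for Foxc1 (-0.81 to 0.74) and -0.28 for Foxc2 (-1.42 to 0.86). By limma 0 of 5 passed (adjusted p from 0.916 to 0.985), 0 had an unadjusted p under 0.05, and 0.0% of all genes were called, although 495 genes had an unadjusted p under 0.05. Under GQ-16 the changes were 0.08 for Wt1 (95% interval -0.97 to 1.14), -0.01 for Tcf21 (-1.38 to 1.37), 0.01 for Lmx1b (-1.18 to 1.20), 0.24 for Foxc1 (-0.54 to 1.01) and 0.13 for Foxc2 (-1.01 to 1.27). Again 0 of 5 passed by limma (adjusted p from 0.911 to 0.998), 0 had an unadjusted p under 0.05, and 0.0151% of all genes were called. The lower limits of these intervals reached -1.92 under pioglitazone and -1.38 under GQ-16, both for Tcf21. The upper limits reached 0.86 (Foxc2) and 1.37 (Tcf21). For each factor, changes within its own interval were compatible with these data. Under median-ratio scaling the estimate for Foxc1 with pioglitazone was 0.05 and that for Tcf21 with GQ-16 was 0.12, each of opposite sign to the deposited scale.

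The 2 agonists were compared directly at the doses used, which may differ. GQ-16 minus pioglitazone was 0.38 for Wt1, 0.54 for Tcf21, 0.43 for Lmx1b, 0.27 for Foxc1 and 0.41 for Foxc2. All 5 estimates were positive, and none passed by limma (adjusted p 0.999 for each, 0 with an unadjusted p under 0.05), with 0.0% of all genes called and 786 at an unadjusted p under 0.05. Under median-ratio scaling the median of the members was 0.45 and that of all genes 0.02.

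Against control, which both treated groups share with PAN, the changes under pioglitazone were 1.22 for Wt1, 1.63 for Tcf21, 1.09 for Lmx1b, 1.06 for Foxc1 and 1.26 for Foxc2. None passed by limma (adjusted p from 0.0942 to 0.203), and 4.98% of all genes were called. An unadjusted limma p under 0.05 was found for 4 of 5, beside 3767 of the 13222 genes. Under GQ-16 the changes were 1.61, 2.17, 1.53, 1.33 and 1.67 in the same order, with limma adjusted p from 0.0911 to 0.140. There 0 of 5 passed, and 0.151% of all genes were called. All 5 of 5 had an unadjusted limma p under 0.05, beside 3165 of the 13222 genes. Without control rat 1, 5 of 5 passed in each of these comparisons, beside 12.6% of all genes for pioglitazone and 11.9% for GQ-16. Relative to the mean of the podocyte genes, 0 of 5 passed by limma under either drug against control, where 0.0529% of all genes passed in each comparison. The limma adjusted p-values there were 0.441 to 0.565 for pioglitazone and 0.133 to 0.508 for GQ-16. Ratios to control under pioglitazone were 1.36 for Wt1, 1.80 for Tcf21, 1.24 for Lmx1b, 1.21 for Foxc1 and 1.39 for Foxc2, with exact permutation p-values of 0.0286, 0.0571, 0.143, 0.171 and 0.0571, unadjusted. Only Wt1 was higher without overlap, 1 of 5 against 0.575% of all genes. Ratios under GQ-16 were 1.47, 2.18, 1.396, 1.22 and 1.54 in the same order, with exact permutation p-values of 0.0286, 0.0286, 0.0286, 0.143 and 0.0571, unadjusted. Wt1, Tcf21 and Lmx1b were higher without overlap, 3 of 5 against 0.673% of all genes. On this scale the median change of all genes was -0.57 under pioglitazone and -0.88 under GQ-16. The shares of all genes are therefore not a like baseline here either. With the median of the list as reference, Wt1 overlapped in both comparisons (a difference of 0.25 under pioglitazone and 0.16 under GQ-16), and so did Lmx1b (0.13 and 0.079, exact permutation p 0.0857 and 0.743, unadjusted). Foxc1 (0.090 and -0.12) and Foxc2 (0.29 and 0.22) overlapped as well. Tcf21 then differed by 0.66 and 0.72 and was the 1 of 5 without overlap in each comparison (exact permutation p 0.0286 in both, unadjusted), against 0.257% and 0.212% of all genes. The gap under pioglitazone was narrow, with the lowest treated rat and the highest control rat both at -2.52. By limma 0 of 5 passed with that reference, against 0.0151% and 0.0378% of all genes. Relative to the mean again, leaving out control rat 1 made Tcf21 pass under pioglitazone (limma adjusted p 0.0455, 1 of 5) and Tcf21 and Foxc2 pass under GQ-16 (0.00604 and 0.0479, 2 of 5), where 23.3% and 88.1% of all genes passed. Leaving out GQ-16 rat 2 made Tcf21 pass under GQ-16 (limma adjusted p 0.0310, 1 of 5), where 72.0% of all genes passed.

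Genes that belong with these factors were read from lists. Among 12 podocyte structural genes, 2 passed in PAN against control and both rose, with a list median of 1.30. The slit diaphragm gene Nphs1 (nephrin) changed by 1.20 (limma adjusted p 0.0939), Synpo by 1.56 (0.0736) and the sialomucin gene Podxl by 0.51 (0.209), and none of the 3 passed. Under median-ratio scaling 1 of the 12 passed. Among 17 other transcriptional regulators of podocytes and nephron progenitors, 0 passed by limma, 2 did at an unadjusted 0.05, and the list had a median of 0.27 against 0.28 over all genes. The zinc finger gene Klf6 changed by 0.32 (limma adjusted p 0.0880) and did not pass.

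Of 10 genes for proteins that bind these factors, such as the E proteins that pair with Tcf21 and the Ldb cofactors of Lmx1b, 1 rose in PAN. This was Pawr, which encodes prostate apoptosis response 4, a binding partner of Wt1. Pawr averaged 30.2 ± 14.7 CPM over controls and 62.9 ± 3.73 CPM over PAN rats (SD, n = 4), a change of 1.14 (limma adjusted p 0.00913) that also passed under median-ratio scaling at 0.84 (0.0138). The control rats reached 51.7 CPM at most and the PAN rats began at 60.5 CPM, so the groups did not overlap. The call of Pawr was lost with the term for library numbers of 25 or higher (0.88, limma adjusted p 0.162; with median-ratio scaling 0.67, 0.159), and it was kept with any 1 control or PAN rat left out (limma adjusted p 0.000765 to 0.0446). Of 13 genes reported as targets of these factors, 3 rose in PAN and the list median was 1.18. Among them Sulf1, a heparan sulfate 6-O-endosulfatase, changed by 1.25 (limma adjusted p 0.0246) and the intermediate filament gene Nes (nestin) by 2.31 (0.0181). Nes averaged 620 ± 563 CPM over controls and 2235 ± 339 CPM over PAN rats (SD, n = 4). Under median-ratio scaling 2 of the 13 passed, and Sulf1 was not among them (0.95, limma adjusted p 0.0571). Without control rat 2, control rat 3 or PAN rat 1 neither Sulf1 (limma adjusted p 0.102, 0.0970 and 0.0626) nor Nes (0.0803, 0.0753 and 0.0544) passed, without PAN rat 2 Sulf1 did not (0.0620), and with the library number term neither did (0.262 and 0.261). These list counts stand beside the same 22.3% of all genes as deposited and 8.63% under median-ratio scaling.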

How the data were processed

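Glomerular poly(A) RNA of 16 rats was sequenced on 2 lanes as read pairs of 150 bp from stranded libraries (200 ng of RNA, 12 PCR cycles, per the labels' protocols). Per the submitters' processing notes, HISAT2, featureCounts from Subread and limma were used with genome build Rnor_6.0; versions and settings are not given in the sources used here. The authors deposited log2 CPM values for 13222 genes. From the values, these are logs of counts plus 0.5 over totals plus 1, and reversing that step gave whole reads (within 0.1) for 100% of values. Genes below 2 CPM in more than 8 libraries are absent, and totals cover the listed genes only. No count model was run on the recovered reads. The deposited log2 values were analysed, with voom weights from those reads as an alternative.

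Here CPM was 2 to the power of the deposited value. limma 3.58.1 in R 4.3.3, with a variance trend, was fitted to log2(CPM + 1) in all 16 libraries with 4 group means. P-values were two-sided and Benjamini-Hochberg adjusted over 13222 genes, with a threshold of 0.05. A mean of at least 1 CPM was required and removed 0 genes. The relative scale subtracts the mean of 12 podocyte structural genes. Its limma spread is shared with genes of other cell types, so a fit with the variance of each gene alone is also given. Correlations are Pearson's. The code was tested on simulated data. Alternatives were quantile and median-ratio scaling, a pseudocount of 0.1, a minimum mean of 10 CPM and no filter, voom weights, fits to 2 groups, a library number term, the podocyte median as reference and leaving out each rat. Others were added after the data were seen: totals without mitochondrial genes, libraries numbered up to 15, the variance of each gene alone, the podocyte mean as covariate, and median-ratio scaling together with either term.

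The members and gene lists were chosen with earlier results of these data known. Named genes are the 5 members, the 5 genes most correlated with each, the genes called in PAN against control in the lists of regulators, partners and reported targets (where none, the 2 with the smallest p), and Nphs1, Podxl and Synpo. Other list genes are only counted, and some genes that the rule would name are not reported here. Of the lists, 10 genes are not in the table, among them Osr1, Sox4, Wtip and Bmper. Parietal epithelial markers rose in 1 of 6 as deposited and in 0 under median-ratio scaling. Promoter sequences come from RefSeq assembly GRCr8, which is not the build of the expression table.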

Additional observations from a re-analysis of the deposited data

Results flagged for a closer look

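In 40 groups of 4 rats (5 factors on 2 scales in 4 groups), a gap test at the 95% level marked 3 single rats as far from the other 3, and about 2 would be expected by chance. Foxc1 was lowest in PAN rat 4, at 5.56 in log2(CPM + 1), with the other PAN rats between 5.93 and 5.96. Relative to podocyte structural genes, Foxc2 was highest in control rat 1, at -2.48, with the other control rats between -3.10 and -3.04. On the same scale, Foxc2 was lowest in GQ-16 rat 4, at -2.52, with the other rats of that group between -2.24 and -2.21.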

How the results depend on the processing

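No paired analysis was possible because the labels give no replicate numbers shared between groups. For PAN against control, the number of factors that passed was 0 of 5 under median-ratio scaling, quantile normalization, totals without mitochondrial genes, the library number term (also with median-ratio scaling) and the variance of each gene alone. It was 1 in the fit to the 2 groups compared and with the podocyte mean as covariate under either scaling. It was 4, with Foxc2 added, with a pseudocount of 0.1, a minimum mean of 10 CPM or voom weights, and 3 with no filter. That covariate also gave 1 in pioglitazone against control and 1 in GQ-16 against control. Among all genes, 2943 passed, against 379 to 1580 under the settings that gave 0 or 1 factor other than the variance of each gene alone (2681). In the lists, the podocyte structural count was 1 under median-ratio scaling, quantile normalization and totals without mitochondrial genes, and 0 with the library number term, which also gave 0 partners and 0 reported targets.

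Leaving out 1 rat at a time gave 0 to 5 factors in each comparison with control. The lists gave 0 to 7 podocyte structural genes, 0 to 6 regulators and 0 to 9 reported targets, and each maximum came without control rat 1. On the relative scale it gave 0 to 1 factor for PAN and pioglitazone and 0 to 2 for GQ-16 against control. These maxima also came without control rat 1, where 10512, 3080 and 11648 of the 13222 genes passed.

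Some changes turned sign, most of them small, and none of these passed the threshold. The largest to do so was -0.55 for Tcf21 in pioglitazone against PAN. For pioglitazone against PAN, Foxc1 was 0.049 under median-ratio scaling and without mitochondrial genes, 0.065 after quantile normalization, 0.29 with the library number term, 0.31 with that term and median-ratio scaling, and 0.16 or 0.17 with the podocyte covariate. In the same comparison the library number term gave 0.064 for Wt1 and 0.094 for Foxc2, with median-ratio scaling 0.085 for Wt1, 0.0060 for Tcf21 and 0.11 for Foxc2, and the podocyte covariate gave 0.0075 and 0.0031 for Foxc2. For GQ-16 against PAN, Tcf21 was 0.12 under median-ratio scaling and without mitochondrial genes, 0.11 after quantile normalization, 0.52 and 0.59 with the library number term, and Lmx1b was -0.027 with the covariate and median-ratio scaling. On the relative scale Tcf21 in that comparison was 0.16 with the library number term, and Foxc1 for GQ-16 against pioglitazone was -0.030 in libraries numbered up to 15. With the podocyte median as reference, PAN against control shrank to 0.056 for Wt1, 0.053 for Lmx1b, 0.075 for Foxc2 and 0.71 for Tcf21, and Foxc1 was -0.38 in PAN and -0.12 in GQ-16 against control. Pioglitazone against PAN then gave 0.20 for Wt1, 0.072 for Lmx1b and 0.22 for Foxc2, GQ-16 against PAN gave 0.010 for Tcf21, and GQ-16 against pioglitazone gave -0.097 for Wt1, -0.046 for Lmx1b, -0.21 for Foxc1 and -0.075 for Foxc2. The cause was not tested.

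Leaving out 1 rat, pioglitazone against PAN ranged from -0.53 to 0.097 for Wt1, -0.73 to 0.047 for Lmx1b, -0.19 to 0.18 for Foxc1 and -0.53 to 0.098 for Foxc2. GQ-16 against PAN ranged from -0.12 to 0.38 for Wt1, -0.31 to 0.42 for Tcf21, -0.21 to 0.33 for Lmx1b and -0.065 to 0.47 for Foxc2. GQ-16 against pioglitazone ranged from -0.014 to 0.69 for Wt1 and -0.039 to 0.75 for Lmx1b. On the relative scale, Foxc1 ranged from -0.046 to 0.15 for PAN against control and from -0.086 to 0.11 for GQ-16 against pioglitazone. There, pioglitazone against PAN ranged from -0.13 to 0.038 for Wt1 and -0.089 to 0.067 for Foxc2, and GQ-16 against PAN from -0.012 to 0.15 for Wt1, -0.090 to 0.054 for Tcf21 and -0.050 to 0.056 for Lmx1b. Of 570 values of single factors under the other settings, 507 kept direction and side of the threshold. With 4 rats a group, the spread between rats was far larger than counting error.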
